A study of Homo sapiens with 9 samples.

Results

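The 59 genes described here are neighbours on the short arm of human chromosome 12 (12p), from KDM5A near its tip to IPO8 closer to the centromere, and were chosen by their RNA values, which were lower in the ARNT2 knockout line B3 than in unedited cells. They were taken from a deposited table of 19356 genes by a fixed list of symbols, without a threshold. All 59 were found, all 59 matched the GENCODE 29 annotation on chromosome 12, and all 59 were among the 16457 genes that passed a filter on low values. Since values of B3 against WT chose them, those values are given as a description and without a test. The question asked of them was whether they shifted together as a region.

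The cells were LN229, a human line long established from a glioblastoma, sequenced in 3 groups with 3 libraries each: the CRISPR ARNT2 knockout line B3, the CRISPR ARNT2 knockout line C4, and unedited wild-type cells (WT). All groups grew in DMEM with 5% FBS, at 37 °C and 5% CO2, and polyadenylated RNA was sequenced. The study asked how ARNT2 acts on the proliferation and differentiation of glioblastoma cells. Each knockout genotype is represented by 1 line, and no label states that a group's samples were grown separately, so the p-values reflect no more than the sample-to-sample spread, which may be technical.

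Genes that lie side by side on a chromosome arm need not share a function, and the products of these 59 range from histone-modifying enzymes and helicases to receptors, metabolic enzymes and vesicle proteins. The RNA level of a gene depends on how many copies of it a cell holds, how often they are transcribed and how fast the RNA decays, and only RNA was measured here. ARNT2, the targeted gene, encodes a bHLH-PAS transcription factor of the nervous system. Proteins of the ARNT family bind DNA as dimers, and with HIF alpha subunits they bind elements with the core ACGTG.

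Promoter sequences are shown for the members that hold that core, since the edited gene encodes a factor of this family. RefSeq promoters (GRCh38.p14) matched 44 of the 59 members. The 250 bases before the start site were searched for ACGTG on both strands, so that CACGT counts as a match and the palindrome CACGTG is matched on both. A match lay in 6 members, LTBR, TAPBPL, CLSTN3, DERA, RECQL and ERGIC2. For 3 of them, the stretch of the window outside annotated exons that still holds the match is printed. Each runs 5′ to 3′ along the strand of the gene, with the match in capitals. They are LTBR at chr12:6383912-6384032 and DERA at chr12:15911082-15911171 on the plus strand, and ERGIC2 at chr12:29381190-29381422 on the minus strand. The LTBR match is the palindrome CACGTG, whose last base lies in an annotated exon and is not printed. Its window lies within the GENCODE span of LTBR, 6375045 to 6391571.
LTBR: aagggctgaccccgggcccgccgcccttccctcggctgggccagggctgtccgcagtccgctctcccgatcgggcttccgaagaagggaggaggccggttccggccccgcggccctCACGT
DERA: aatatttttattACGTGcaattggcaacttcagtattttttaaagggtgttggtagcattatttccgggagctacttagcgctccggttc
ERGIC2: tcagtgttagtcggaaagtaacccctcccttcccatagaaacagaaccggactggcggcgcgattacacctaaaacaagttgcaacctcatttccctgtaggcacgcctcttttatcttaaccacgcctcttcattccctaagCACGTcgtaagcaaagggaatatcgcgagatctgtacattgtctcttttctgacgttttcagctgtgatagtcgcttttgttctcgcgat

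The match was thus present in 13.6% of the members with a promoter entry, against 24.2% of the 91 other tested 12p genes with one, 22.8% of the 11671 tested genes with one and 18.7% of all 27305 promoters in the table. Over the 6 members with a match, the B3 minus WT difference, which chose them, had a median of -0.47 (log2) and ran between -0.61 and -0.17. Over the 38 members without it the median was -0.26 and the range -1.66 to 0.08. The gap between the medians was not tested. In C4, where ARNT2 RNA was lower too, the differences were -0.08 for LTBR, 0.04 for TAPBPL, 0.01 for CLSTN3, 0.19 for DERA, 0.09 for RECQL and -0.05 for ERGIC2. A match to these letters is not a binding site. PHB2 and EMG1 start on opposite strands next to each other, and their windows share 248 bases.

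The authors' deposited values are on a log2 scale and carry no counts, so the depth of each library is unknown. The median over all genes was 10.62 to 10.65 in the 9 libraries. The values of weakly expressed genes appear drawn towards the mean of each gene, which understates their differences. Over all 16457 genes tested, 47.9% were called changed in B3 and 56.2% in C4 by limma at an adjusted p under 0.05. Glioblastoma cell markers were high in every library (VIM 17.83 to 18.23, CD44 16.48 to 16.62, NES 15.32 to 15.47, SOX2 12.19 to 12.50, EGFR 11.68 to 12.30), whereas the leukocyte marker PTPRC (2.35 to 2.40) and the neuronal marker RBFOX3 (3.25 to 3.34) were near the floor. Of 10 markers of other cell types 9 were in the table, with CD68 (10.68 to 10.99) and SNAP25 (11.20 to 11.50) the highest and KRT5 next (7.35 to 8.28). Of the 7 that were tested 1 rose and 3 fell in B3, and 1 rose and 2 fell in C4; their part in the results was not tested. ARNT2 RNA was 11.91, 11.90 and 11.86 in B3 and 12.22, 12.15 and 12.05 in C4, against 13.56, 13.59 and 13.58 in WT. It fell by 1.69 ± 0.03 in B3 (SE, limma adjusted p = 1.74e-21) and by 1.43 ± 0.03 in C4 (SE, limma adjusted p = 1.88e-20). In bulk RNA, fewer cells of a kind and less RNA per cell cannot be told apart.

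In B3, the RNA of the 59 members was lower by a small and similar amount. Their median B3 minus WT difference was -0.28 (log2), which is 82.2% of the WT level, with quartiles of -0.36 and -0.19. The difference was below 0 for 58 members, and in 57 every B3 library was below every WT library, against 27.4% of all genes tested. Both exceptions were vesicle and autophagy genes, VAMP1, whose groups overlapped, and GABARAPL1. Because the members were selected on this contrast, these counts support nothing about them.

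The shift was nearly the same in each library. Set against the WT mean of each gene, the median over the members was -0.28, -0.28 and -0.29 in the B3 libraries and 0.04, 0.05 and 0.03 in the C4 libraries, against -0.00, -0.01 and -0.01 in the WT libraries. The 3 groups did not overlap in this median. For B3 against WT, that and the shares that follow were largely fixed by the choice of the members. The members together made up 0.433%, 0.433% and 0.432% of the summed antilogs in B3 and 0.544%, 0.540% and 0.540% in C4, against 0.519%, 0.521% and 0.519% in WT.

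**Figure D1:**
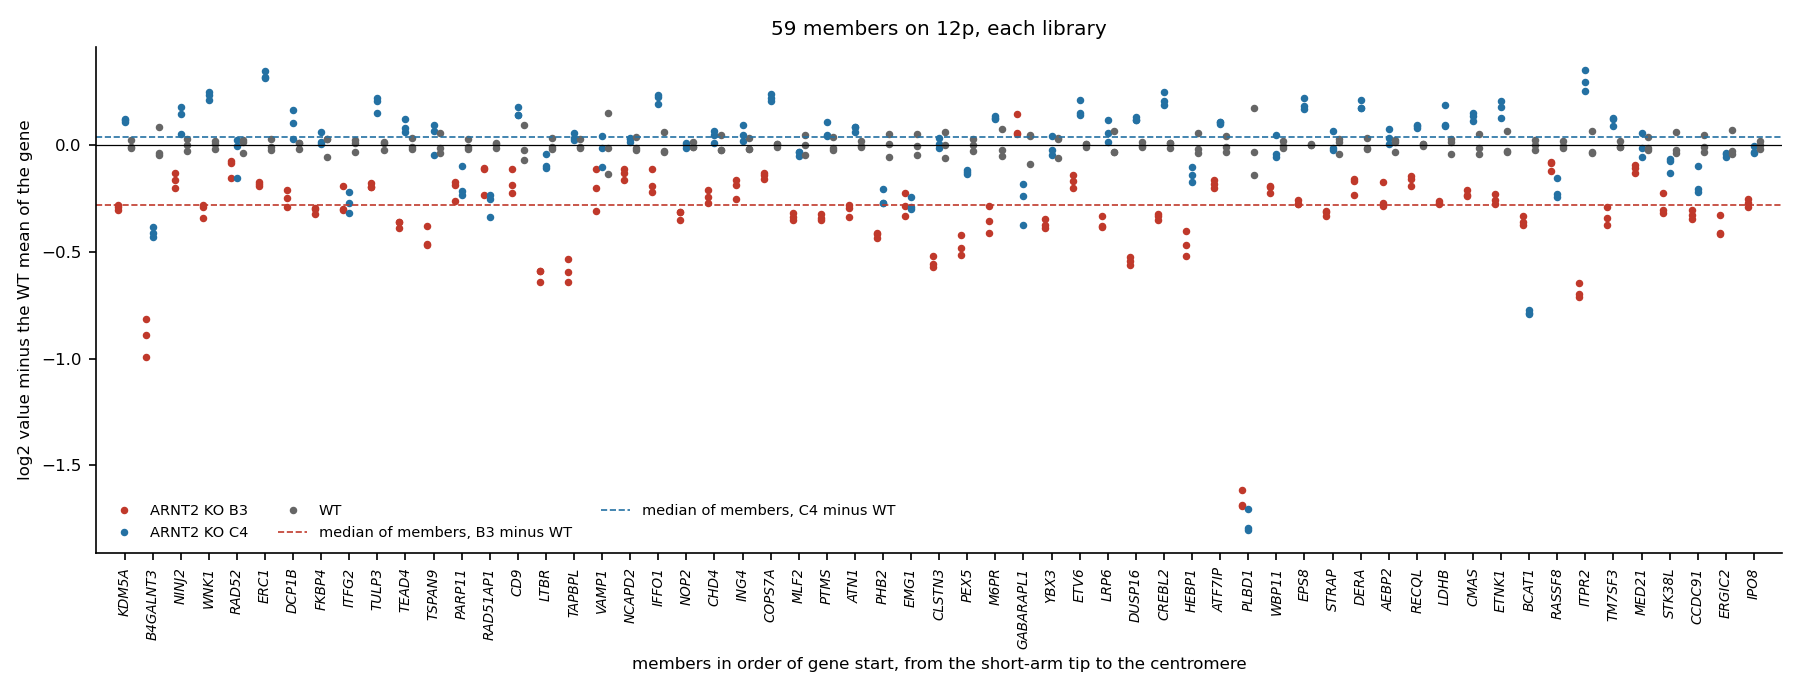
Each point is a library of B3 (red), C4 (blue) or WT (grey), plotted as the log2 value minus the WT mean of the gene, for the 59 members in order along 12p. Dashed lines mark the median difference of the members, -0.28 in B3 and 0.04 in C4; PLBD1 lies far below in both knockout lines.

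The shift was similar across the members but not identical. The difference of 45 members lay within 0.15 of the median and that of 46 between -0.4 and -0.1. Among the 55 members whose antilog (2 to the power of the deposited value) averaged at least 1000 over the libraries, the SD of the difference was 0.15, whereas the SD between replicate libraries of a member had a median of 0.03 in B3, 0.03 in C4 and 0.03 in WT. The spread among members was thus larger than the replicate spread. Across the members, as a description, the correlation of the difference with position along the arm was close to 0 (Pearson r = -0.01, Spearman rho = -0.07, n = 59 genes) and that with level was weak (r = 0.16, rho = -0.11, n = 59 genes); the genes share the same 9 libraries.

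Far below the others stood PLBD1, which encodes a phospholipase B-like lysosomal protein (chromosome 12, 14503661 to 14568349, minus strand, GRCh38, as are all positions here). It had log2 values of 7.13, 7.06 and 7.06 in B3 and 7.04, 6.95 and 6.94 in C4, against 8.92, 8.61 and 8.72 in WT. Both knockout lines were below WT in every library, and B3 was at 31.6% of the WT level (difference -1.66). B4GALNT3, a glycosyltransferase gene (460364 to 563509, plus strand), had 9.47, 9.57 and 9.65 in B3 and 10.03, 10.08 and 10.05 in C4, against 10.54, 10.41 and 10.42 in WT. The 3 groups did not overlap for B4GALNT3, with B3 lowest, at 53.6% of the WT level.

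The other 4 members with the largest differences were lower in B3 and near or above WT in C4. ITPR2, the gene of an inositol trisphosphate receptor that releases calcium from the endoplasmic reticulum (26336515 to 26833198, minus strand), had 12.38, 12.32 and 12.33 in B3 and 13.28, 13.32 and 13.38 in C4, against 13.10, 13.00 and 12.99 in WT. Its B3 libraries were all below WT and its C4 libraries all above, and the B3 minus WT difference was -0.68. LTBR, the lymphotoxin beta receptor (6375045 to 6391571, plus strand), had 12.39, 12.44 and 12.44 in B3 and 12.92, 12.93 and 12.98 in C4, against 13.06, 13.01 and 13.02 in WT. All its C4 libraries were also below WT, but by far less than the B3 libraries.

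TAPBPL, which encodes a peptide editor of MHC class I molecules (6451690 to 6466517, plus strand), had 10.59, 10.54 and 10.65 in B3 and 11.21, 11.22 and 11.24 in C4, against 11.21, 11.17 and 11.17 in WT. Only B3 stood apart from WT, at 66.4% of its level, while C4 and WT overlapped. CLSTN3, a calsyntenin of synaptic membranes (7129698 to 7158945, plus strand), had 11.98, 12.02 and 11.98 in B3 and 12.55, 12.53 and 12.58 in C4, against 12.61, 12.49 and 12.54 in WT. C4 and WT overlapped here too, and B3 was at 68.3% of the WT level.

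The smallest differences belonged to GABARAPL1, RASSF8, RAD52, MED21, NCAPD2 and COPS7A. GABARAPL1, an ATG8-family gene of autophagy, had 7.63, 7.72 and 7.64 in B3 and 7.34, 7.21 and 7.40 in C4, against 7.63, 7.62 and 7.49 in WT. It was the only member with a positive B3 minus WT difference, 0.08. Every B3 library was above every WT library, but narrowly: the lowest B3 value was 7.635 and the highest WT value 7.629. RASSF8, a Ras-association domain gene, had 13.53, 13.53 and 13.49 in B3 and 13.45, 13.38 and 13.36 in C4, against 13.60, 13.59 and 13.63 in WT. Both lines were below WT, and C4 was below B3.

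RAD52, the single-strand annealing factor of homologous recombination, had 10.12, 10.04 and 10.11 in B3 and 10.04, 10.19 and 10.22 in C4, against 10.22, 10.16 and 10.21 in WT. MED21, a Mediator subunit, had 11.27, 11.23 and 11.25 in B3 and 11.34, 11.41 and 11.30 in C4, against 11.35, 11.40 and 11.34 in WT. Both genes were lower than WT in all B3 libraries, with differences of -0.10 for RAD52 and -0.11 for MED21, and C4 overlapped WT. NCAPD2, a subunit of condensin I, had 14.56, 14.54 and 14.51 in B3 and 14.69, 14.71 and 14.71 in C4, against 14.71, 14.65 and 14.66 in WT. COPS7A, a subunit of the COP9 signalosome, had 12.96, 12.94 and 12.97 in B3 and 13.34, 13.31 and 13.32 in C4, against 13.09, 13.11 and 13.10 in WT. The groups of COPS7A did not overlap at all, with B3 below and C4 above WT, whereas C4 and WT overlapped for NCAPD2.

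The members with the highest deposited values, which are not scaled for gene length, differed from WT in B3 by -0.24 (CHD4), -0.27 (LDHB), -0.34 (PTMS) and -0.42 (PHB2), the last outside the quartiles of the members. LDHB, the heart-type subunit of lactate dehydrogenase, had 16.07, 16.06 and 16.05 in B3 and 16.52, 16.42 and 16.42 in C4, against 16.28, 16.36 and 16.34 in WT. B3 was below WT and C4 above it, with no overlap. CHD4, the ATPase of the nucleosome remodelling complex NuRD, had 15.58, 15.61 and 15.55 in B3 and 15.83, 15.87 and 15.89 in C4, against 15.87, 15.80 and 15.80 in WT. Only B3 stood apart.

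PHB2, a prohibitin of the inner mitochondrial membrane, had 15.15, 15.16 and 15.14 in B3 and 15.36, 15.30 and 15.30 in C4, against 15.51, 15.62 and 15.57 in WT. PTMS, the parathymosin gene, had 14.84, 14.82 and 14.81 in B3 and 15.27, 15.20 and 15.21 in C4, against 15.13, 15.19 and 15.14 in WT. PHB2 was below WT in every library of both lines, while PTMS was below it in B3 and above it in C4. PTMS overlaps its neighbour MLF2, and TAPBPL overlaps VAMP1, on the opposite strand. In all, 19 members overlap the span of another coding gene, 15 of them on the opposite strand, and whether the counting used strand is not given in the sources used here, so reads of such partners may be mixed.

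By role, the B3 shift was present in each group. The 6 chromatin genes differed by -0.18 to -0.30, with a median of -0.24: the histone H3K4 demethylase KDM5A, CHD4, the H3K4me3 reader ING4, the co-repressor ATN1, the SETDB1 cofactor ATF7IP and the PRC2 cofactor AEBP2. The 10 genes of transcription and RNA had a median of -0.30 and spanned -0.37 to -0.11; they include the Hippo pathway factor TEAD4 (-0.37), the cold-shock protein YBX3 (-0.37), the ETS repressor ETV6 (-0.17), the rRNA methyltransferase NOP2 (-0.33), the splicing-linked WBP11 (-0.20), the SMN-complex partner STRAP (-0.32), the decapping cofactor DCP1B (-0.25) and the bZIP-like CREBL2 (-0.34). The narrowest and smallest shift was that of the 5 genes of genome maintenance and mitosis, -0.21 to -0.10 with a median of -0.15, among them the homologous recombination gene RAD51AP1, the ADP-ribosyltransferase PARP11 and the RecQ helicase RECQL.

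The 10 signalling genes and receptors had a median of -0.30. They include the MAP kinase phosphatase DUSP16 (-0.54), the Wnt co-receptor LRP6 (-0.37), the chloride-sensing kinase WNK1 (-0.30), the HSP90 co-chaperone FKBP4 (-0.31), the NDR-family kinase STK38L (-0.28), the EGF receptor substrate EPS8 (-0.27) and the ciliary trafficking factor TULP3 (-0.19). The 6 genes of membrane and adhesion had the lowest median of all groups, -0.39, with the tetraspanins TSPAN9 at -0.44 and CD9 at -0.18, the adhesion molecule NINJ2 at -0.17 and TM7SF3 at -0.34. Among the 7 metabolic genes (median -0.27) were the haem-binding HEBP1 (-0.46), the deoxyribose-phosphate aldolase DERA (-0.19), the sialic acid activating enzyme CMAS (-0.23) and the ethanolamine kinase ETNK1 (-0.26).

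Trafficking and organelle genes, 10 in number, had a median of -0.34 and the widest range, -1.66 to 0.08. The peroxisomal import receptor PEX5 (-0.47), the ER-Golgi protein ERGIC2 (-0.38), the mannose 6-phosphate receptor M6PR (-0.35), the Golgi-associated CCDC91 (-0.33) and the importin IPO8 (-0.27) lay within it. The 5 remaining genes had a median of -0.27 (ITFG2 -0.27, IFFO1 -0.18, MLF2 -0.34).

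The same members did not move as a group in C4. Their median C4 minus WT difference was 0.04 (log2), and 25 rose, 15 fell and 19 did not pass limma's adjusted p of 0.05, against 28.2% higher and 28% lower among all genes tested. Among genes whose mean antilog reached 1000, 43.6% of the members rose and 23.6% fell, against 34.7% and 32.9% of all tested. With all libraries brought to one total, 30 members rose and 13 fell, and of all genes called 61.5% were higher, against 50.2% with the deposited scaling (64.2% against 48.5% for B3). C4 did not choose the members, but it was compared with the same 3 WT libraries, so its differences and those of B3 share their errors.

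ERC1, which encodes a scaffold protein of vesicle docking, had 13.39, 13.37 and 13.38 in B3 and 13.88, 13.87 and 13.90 in C4, against 13.59, 13.55 and 13.54 in WT. It had the largest rise in C4 among members, 0.33 ± 0.02 (SE, limma adjusted p = 1.56e-11). ITPR2 rose by 0.30 ± 0.03 in C4 (SE, limma adjusted p = 1.02e-08). WNK1 had 13.97, 13.98 and 13.92 in B3 and 14.47, 14.50 and 14.51 in C4, against 14.27, 14.28 and 14.24 in WT. Its rise in C4 was 0.23 ± 0.02 (SE, limma adjusted p = 9.03e-09), and that of COPS7A 0.22 ± 0.02 (SE, limma adjusted p = 1.16e-08). All 4 genes had B3 below, and C4 above, every WT library.

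PLBD1 had the largest fall in C4, with a difference of -1.77 ± 0.06 (SE, limma adjusted p = 2.24e-17), beside -1.66 in B3. BCAT1, the cytosolic branched-chain amino acid transaminase, had 13.53, 13.56 and 13.52 in B3 and 13.10, 13.11 and 13.12 in C4, against 13.87, 13.92 and 13.90 in WT. It fell by 0.78 ± 0.02 in C4 (SE, limma adjusted p = 1.53e-18), a larger difference than the -0.36 of B3. B4GALNT3 fell by 0.41 ± 0.05 in C4 (SE, limma adjusted p = 1.13e-07). EMG1, a ribosome biogenesis methyltransferase gene, had 13.05, 12.94 and 12.99 in B3 and 13.03, 12.97 and 12.98 in C4, against 13.23, 13.33 and 13.27 in WT. The lines overlapped and both lay below WT, with differences of -0.28 in B3 and -0.28 ± 0.03 in C4 (SE, limma adjusted p = 1.97e-08).

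By role, C4 went both ways in 6 of the 8 groups, and chromatin and membrane genes had rises and no falls. With 5 to 10 genes a group, the counts that follow stand beside 28.2% higher and 28% lower among all genes tested, and several are near those shares. Of the 6 chromatin genes 3 rose and none fell, KDM5A by 0.12, ATF7IP by 0.10 and ATN1 by 0.08, and CHD4 (0.04), AEBP2 (0.04) and ING4 (0.05) did not pass the test. Of the 6 membrane and adhesion genes 3 rose and none fell, CD9 by 0.15, NINJ2 by 0.12 and TM7SF3 by 0.11. Of the 7 metabolic genes 4 rose, DERA by 0.19, ETNK1 by 0.17, CMAS by 0.13 and LDHB by 0.12, and 3 fell, BCAT1, B4GALNT3 and HEBP1 (-0.14). Metabolism thus held both the members of this arm that fell furthest in C4 after PLBD1 and several that rose.

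Of the 10 signalling genes 5 rose in C4, among them EPS8 (0.19), TULP3 (0.19) and DUSP16 (0.12), and 3 fell, RASSF8 (-0.21), STK38L (-0.09) and LTBR. Of the 10 trafficking genes 2 rose, ERC1 and M6PR (0.13), and 5 fell, PLBD1, GABARAPL1 (-0.27), PHB2 (-0.25), CCDC91 (-0.18) and PEX5 (-0.13). Genome maintenance had 1 rise, RECQL (0.09), and 2 falls, RAD51AP1 (-0.28) and PARP11 (-0.18), among its 5 genes. Of the 10 genes of transcription and RNA 4 rose, CREBL2 (0.21), ETV6 (0.17), DCP1B and TEAD4 (0.09), and EMG1 fell, while the other 5 had C4 differences of -0.02 to 0.01. Of the 5 remaining genes COPS7A, IFFO1 (0.22) and PTMS (0.07) rose and ITFG2 fell (-0.27). LTBR fell by 0.08 ± 0.03 (SE, limma adjusted p = 0.00856), a call lost when libraries were scaled to the same total (adjusted p = 0.0839, difference -0.05). That scaling also ended the call of STK38L (adjusted p = 0.102) and brought CHD4 (0.0313), ING4 (0.0227), LRP6 (0.0119), FKBP4 (0.0476) and NCAPD2 (0.0488) under the threshold, all 5 higher in C4.

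Some C4 calls were lost or gained when a single library was left out. The rise of DCP1B, 0.10 ± 0.04 (SE, limma adjusted p = 0.0428), was lost without WT replicate 1, 2 or 3 or C4 replicate 1 or 2, with adjusted p of 0.0648 to 0.241, and also with a pseudocount of 8 (0.0509) or 32 (0.0631). That of PTMS was lost without WT replicate 1 or 3 or C4 replicate 1 (adjusted p of 0.0598 to 0.139), and that of TEAD4 without WT replicate 1 or 2 or C4 replicate 1 (0.0660 to 0.0942). The fall of STK38L was lost without WT replicate 3 or C4 replicate 3 (0.0945 to 0.145), and the rise of NINJ2 without C4 replicate 2 (0.0689). LRP6 passed the threshold without WT replicate 1 or C4 replicate 1 (0.00398 to 0.0199), and CHD4 (0.0272) and MLF2 (0.0188) did so without WT replicate 1.

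C4 minus B3 had a median of 0.34 over the members. In 25 members every B3 library was below and every C4 library above all WT libraries, against 5.52% of all genes tested. The selection had largely fixed the B3 part of this order, so the 2 shares are not alike. The C4 part alone held for 42.4% of the members and 30.5% of all genes tested. Among genes whose mean antilog reached 1000, it held for 43.6% of the members and 36.1% of all tested. No p is given for the C4 minus B3 differences, which rest on the B3 libraries that chose the members.

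Lower B3 values were also found on 12p outside the 59. Of the 140 other tested genes of 12p, which the list did not use, 91 (65.0%) were called lower in B3 by limma and 1 higher, against 24.6% lower and 23.2% higher over all genes tested, in the same libraries that chose the members. Their median difference was -0.15. In C4 30 of them (21.4%) rose and 32 (22.9%) fell, against 28.2% and 28% of all genes tested. Their C4 median was -0.01, or 0.02 with libraries scaled to the same total.

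Much of the gap between the other 12p genes and the members went with level. The 65 other genes whose mean antilog reached 1000, a class that holds 55 of the 59 members, had a median of -0.26, with 57 called lower and none higher. The median was -0.18 over the 31 other genes from 100 to 1000 and -0.05 over the 44 below 100, where 14 were called lower. Across all 199 tested 12p genes, the difference went with log2 level at r = -0.34 and rho = -0.50, a description over genes that share the same libraries and, at low levels, the drawn-in values noted above. All 12p genes of the high class together, 120 in number, had a median of -0.28, and 114 were below WT in every B3 library. That count was partly fixed by selection, since 55 of the 120 are members. Without the members, 59 of the 65 were below WT in every library, against 30.2% of all tested genes of this level. Of the same 65, 87.7% were called lower in B3, against 28.0% of all tested genes of this level.

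**Figure D2:**
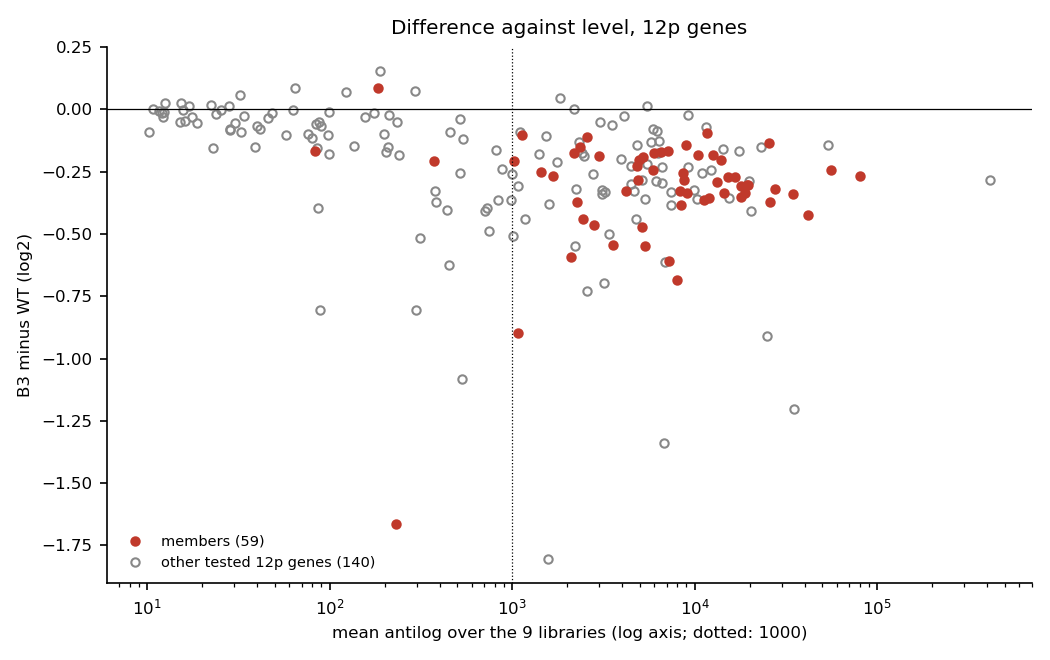
Each point is a tested 12p gene, with its mean antilog over the 9 libraries on a log axis and its B3 minus WT difference in log2. Filled red points are the 59 members and open points the 140 other genes; to the right of the dotted line at 1000 nearly all points lie below 0, while under 100 most gather close to 0.

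The largest departures among the other 12p genes were all decreases in B3. MGST1, a microsomal glutathione transferase gene, had 9.12, 9.03 and 9.05 in B3 and 11.26, 11.11 and 11.15 in C4, against 10.89, 10.85 and 10.88 in WT. C1S, a complement protease gene, averaged 12.03 ± 0.02 in B3 and 12.47 ± 0.07 in C4, against 13.36 ± 0.05 in WT (SD, n = 3 each). MGST1 was thus lower in B3 alone (-1.80) and rose in C4 (0.30), while C1S was lower in both lines (-1.34 in B3, -0.89 in C4). A2M, the protease inhibitor alpha-2-macroglobulin, differed by -1.20 in B3 and 0.22 in C4, and SSPN, a gene of the dystrophin complex, by -1.08 in B3 and -0.05 in C4.

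By the same rule the largest increases in B3 were small, 0.15 for the orphan receptor gene GPR19 and 0.09 for the complement receptor gene C3AR1. A pair of well-known genes of the arm, chosen after their values were seen, lay near the common shift: the glycolytic enzyme gene GAPDH differed by -0.29 in B3 and 0.15 in C4, and the CDK inhibitor gene CDKN1B by -0.23 in B3 and -0.03 in C4. GAPDH has near-identical pseudogene copies and its value is uncertain.

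Along the chromosome, the B3 values were lowest over the first 30 Mb of the short arm and lower by less beyond it, on both arms. Over tested genes whose mean antilog reached 1000, the median B3 minus WT difference was -0.29 from 0 to 10 Mb (57 of 60 genes below WT in every library), -0.28 from 10 to 20 Mb (22 of 22) and -0.29 from 20 to 30 Mb (25 of 26). It was -0.16 from 30 to 40 Mb, a window that holds the centromere: the 12 short-arm genes in it had a median of -0.14 (10 of 12 below WT in every library) and the 4 long-arm genes a median of -0.25 (4 of 4). It was between -0.17 and -0.13 in each window from 40 to 70 Mb. From 70 to 80 Mb it was -0.08, from 80 to 90 Mb -0.05, and from 90 to 100 Mb 0.07. The windows up to 30 Mb hold every member but IPO8, so their values were partly fixed by the selection.

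A boundary at 74 Mb, set after the values were seen, parts the long arm. Up to it, 189 of 295 tested long-arm genes (64.1%) were called lower in B3 and 12 (4.07%) higher, with a median of -0.14. Among all genes tested 24.6% were called lower in B3 and 23.2% higher. Beyond the boundary, 66 of 311 (21.2%) were called lower and 91 (29.3%) higher, with a median of 0.01. In C4 the stretch up to 74 Mb had 117 (39.7%) higher and 55 (18.6%) lower (median 0.05), against 28.2% and 28% of all genes tested. The members had a median of -0.28 and the high-level long-arm genes up to 74 Mb one of -0.16; 58 of the 59 members start before 30 Mb, IPO8 being the exception, and short-arm genes past 30 Mb had the smaller difference given above. The difference between these stretches was not tested.

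**Figure D3:**
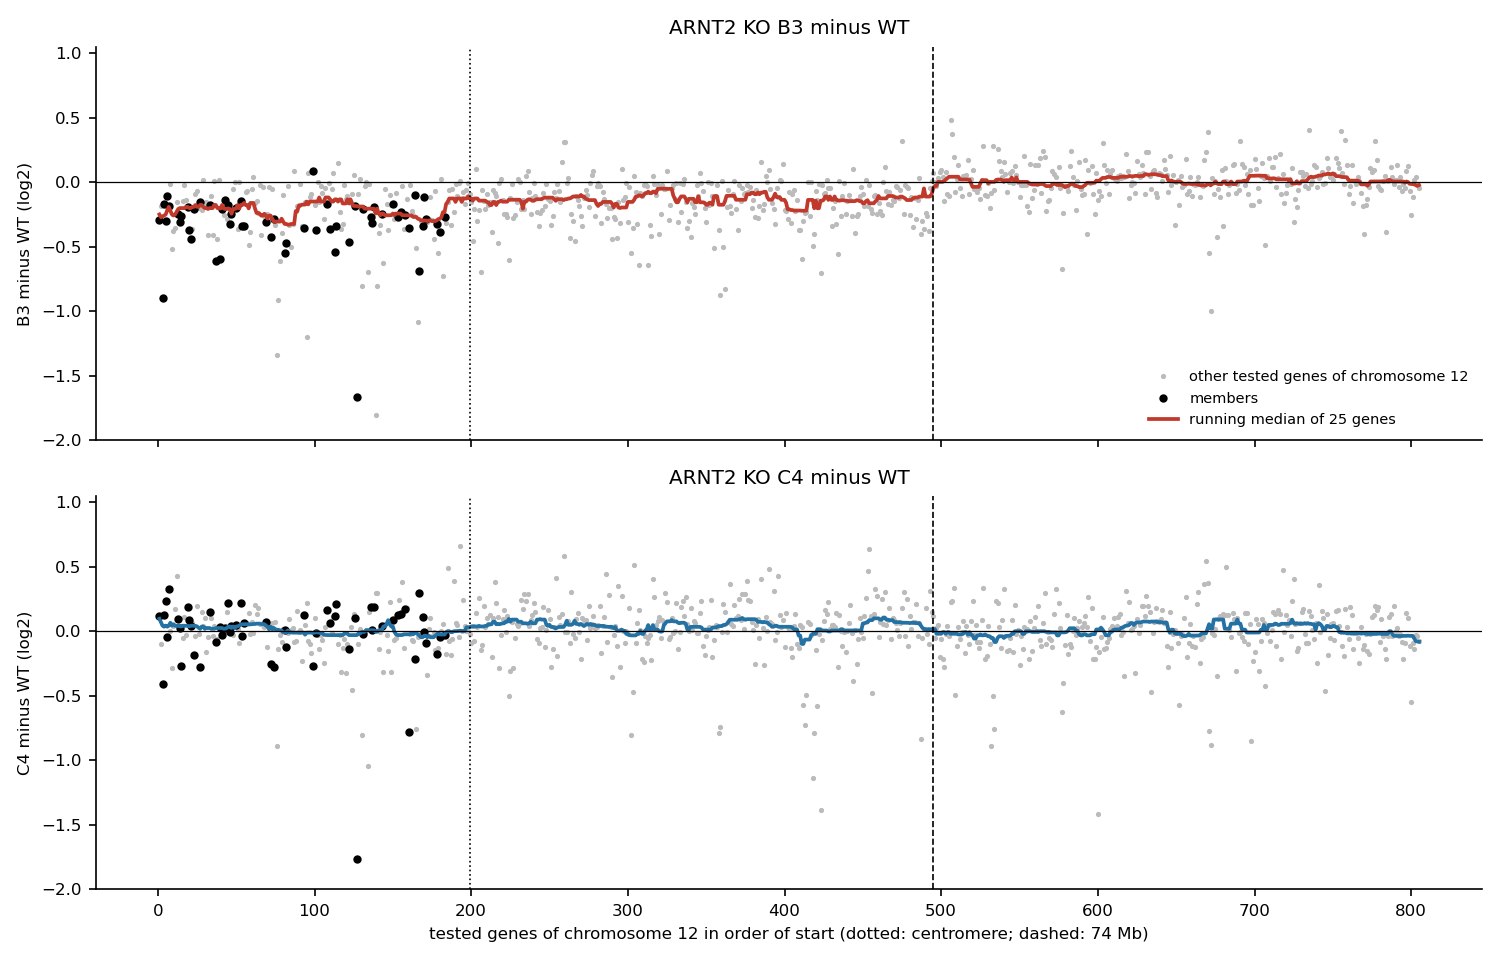
Tested genes of chromosome 12 in order of start, with the B3 minus WT difference above and the C4 minus WT difference below, both in log2; black points are the members, grey points other genes, and the line is the running median of 25 genes. In B3 the line stays below 0 on the short arm and on the long arm (right of the dotted line at the centromere) up to the dashed line at 74 Mb, and lies near 0 beyond it, whereas in C4 it is near 0 on the short arm and slightly above 0 on parts of the long arm up to 74 Mb (medians of 0.07 from 40 to 50 Mb and 0.09 from 60 to 70 Mb).

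Across the genome, 209 windows of 10 Mb held at least 20 tested genes of this level. The windows of chromosome 12 from 20 to 30, 0 to 10 and 10 to 20 Mb ranked 3, 4 and 5 from the lowest B3 median. The 2 lower windows were on chromosome 6, from 80 to 90 Mb (-0.50) and from 70 to 80 Mb (-0.38). The ranks of the 12p windows were partly fixed by the selection, since these windows hold every member but IPO8. They are given as a description. In C4 the 3 windows of 12p had medians of -0.02, 0.03 and 0.00.

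Paralogues and complex partners of the members, which all lay on other chromosomes, were looked at for the same direction. Of 52 listed paralogues 51 were tested, and in B3 19 rose and 14 fell (24.6% lower and 23.2% higher among all genes), with a median of 0.02. In C4 18 rose and 14 fell (28.2% higher and 28% lower among all genes), with a median of 0.04. LDHA, the muscle-type partner subunit of LDHB, rose by 0.20 ± 0.03 in B3 (SE, limma adjusted p = 4.14e-06) and by 0.31 ± 0.03 in C4 (SE, limma adjusted p = 2.78e-09).

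Among the other paralogues of named members, the prohibitin gene PHB rose by 0.08 in B3 and 0.15 in C4, CHD3 by 0.08 and 0.15, GABARAP by 0.17 and 0.22, and WNK4 by 0.19 and 0.61. PTMA rose by 0.11 in B3 and fell by 0.23 in C4, and COPS7B rose by 0.11 in B3 and fell by 0.18 in C4. The inositol trisphosphate receptor genes went the way of ITPR2 in B3, ITPR1 at -0.10 and ITPR3 at -0.21, but fell in C4 too (-0.20 and -0.08), where ITPR2 rose. BCAT2 did not pass the test in either line (0.05 in B3, -0.04 in C4). In B3 TAPBP fell by 0.23, and WNK3 (0.19), NCAPD3 (0.08) and CLSTN2 (0.06) rose. Their C4 differences were -0.03, 0.24, 0.06 and 0.03, of which those of WNK3 and NCAPD3 passed the test. B4GALNT4 (-0.05 in B3, 0.07 in C4), CLSTN1 (-0.06, -0.04), RASSF7 (-0.03, -0.01) and WNK2 (-0.02, -0.05) passed in neither line. GABARAPL2 (-0.01 in B3) rose only in C4, by 0.11. The largest changes on the list in B3 were DUSP10, a MAP kinase phosphatase like DUSP16, up by 0.40 ± 0.05 (SE, limma adjusted p = 2.02e-07), and LRP5, the Wnt co-receptor next of kin to LRP6, which fell by 0.27 ± 0.02 (SE, limma adjusted p = 4.41e-09).

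Partner subunits of complexes that hold a member were mostly higher in B3. Of 42 such genes 24 (57.1%) rose and 2 (4.76%) fell in B3, with a median of 0.08. In C4 15 (35.7%) rose and 16 (38.1%) fell, with a median of -0.01. Of all genes tested 23.2% rose and 24.6% fell in B3, and 28.2% and 28% in C4. Among tested genes whose mean antilog reached 1000 the shares were 29.9% and 28.0% in B3, and 34.7% and 32.9% in C4. The C4 counts were thus close to the shares at that level. All 4 other subunits of condensin I rose in B3 while NCAPD2 was at -0.14: SMC2 by 0.25, SMC4 by 0.30, NCAPH by 0.29 and NCAPG by 0.31 (limma adjusted p = 9.73e-09, 7.91e-10, 3.52e-10 and 1.03e-09). In C4, SMC2 rose by 0.10 and SMC4 by 0.09, whereas NCAPH fell by 0.22 and NCAPG by 0.10.

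Of the 11 NuRD subunits other than CHD4, 5 rose in B3 and 1, MTA1, fell (-0.15), and HDAC1 had the largest rise, 0.17. Of the 7 COP9 signalosome subunits 4 rose, COPS8 most (0.21). Of the 4 PRC2 subunits 3 rose, of the 6 genes of homologous recombination 3 rose, BRCA2 most (0.32), and of the 10 Mediator subunits 5 rose and 1, MED10, fell (-0.07). With 4 to 11 genes a complex, these counts stand beside 29.9% higher and 28.0% lower in B3 among tested genes whose mean antilog reached 1000. With libraries scaled to the same total or to the same median, or without WT replicate 2 or 3 or B3 replicate 1 or 2, 1 partner fell in B3 in place of 2.

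**Figure D4:**
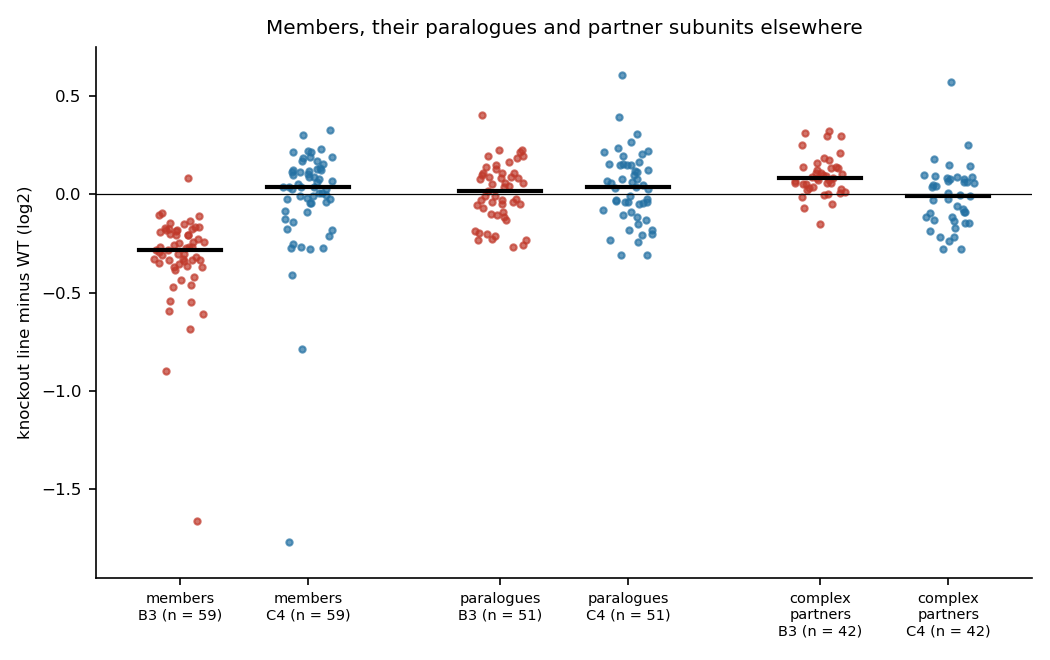
Knockout minus WT differences in log2, B3 in red and C4 in blue, for the 59 members, 51 tested paralogues and 42 complex partners; each point is a gene and the black bar its median. The members sit at -0.28 in B3 and 0.04 in C4, the paralogues at 0.02 and 0.04, and the partners at 0.08 and -0.01.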

How the data were processed

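The authors deposited log2 values per gene and library, scaled between libraries; build hg38 and the tools DESeq2, Subread 1.6.3 and STAR 2.7.3a are listed in the submitters' processing notes, with no role given. The transform is not named; its regularized shape is inferred from the values. The plan allowed for linear values; since they were log2, they were used as deposited. A gene was tested where its antilog averaged 10 or more (16457 genes; 2899 left out). All 9 libraries entered a limma 3.58.1 fit (R 4.3.3) with a coefficient per group and an intensity trend, two-sided, Benjamini-Hochberg adjusted over all genes tested, called under 0.05, and checked on simulated data.

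Members and lists were chosen with earlier results of these data known. Values per library are given for ARNT2, the 6 largest and 6 smallest absolute B3 differences and the 4 highest levels. They are also given for the 4 largest called C4 differences each way. Tested paralogues of those named, and some called genes of the paralogue and partner lists (by plan up to 4), are given by their differences. The other 12p genes were named by the largest differences each way, up to 4, above a mean antilog of 50 with groups not overlapping. Of these, MGST1 is given per library and the rest by means or differences. Short-arm genes end before 35 Mb in GENCODE 29 (GRCh38). Alternatives were filters, pseudocounts of 8 and 32, scalings, robust moderation, fits of only the compared groups, a replicate block and leaving out each library. Same-numbered libraries did not deviate together (correlations -0.23 to 0.02).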

Additional observations from a re-analysis of the deposited data

Results flagged for a closer look

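For 25 of the 59 members every B3 library was below, and every C4 library above, all 3 WT libraries. What singled them out is this opposite order in the 2 knockout lines. The difference was not tested, because B3 chose the members. The same order held for 5.52% of all genes tested, but for members the selection had largely fixed its B3 part. Every C4 library was above all WT libraries for 42.4% of the members and 30.5% of all genes tested. Among genes whose mean antilog reached 1000, this was 43.6% of the members and 36.1% of all tested. The C4 minus B3 differences of these 25 members are log2 values. The receptor and signalling genes had 0.99 (ITPR2), 0.66 (DUSP16), 0.54 (WNK1), 0.46 (EPS8) and 0.38 (TULP3). The genes of transcription and RNA had 0.55 (CREBL2), 0.46 (TEAD4), 0.35 (DCP1B) and 0.34 (ETV6), and the chromatin genes 0.41 (KDM5A), 0.38 (ATN1) and 0.29 (ATF7IP). The metabolic genes had 0.43 (ETNK1), 0.39 (LDHB), 0.37 (DERA) and 0.36 (CMAS). The membrane and adhesion genes had 0.45 (TM7SF3), 0.33 (CD9) and 0.29 (NINJ2), the trafficking genes 0.51 (ERC1) and 0.48 (M6PR), and the helicase gene RECQL 0.25. The remaining ones were PTMS at 0.40, IFFO1 at 0.39 and COPS7A at 0.36.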

How the results depend on the processing

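The members' B3 median (-0.28) was -0.25 with libraries scaled to the same total, -0.27 with them centred on the same median, and -0.30 to -0.27 with a library left out; the C4 median (0.04) was 0.0672 with the same total and 0.0282 to 0.0501 with a library left out. For the other 12p genes, the B3 median (-0.15) was -0.22 with a filter at 50, -0.14 with a pseudocount of 8 or 32 or centring, and -0.12 with the same total; the C4 median (-0.01) turned to 0.0231 with the same total, and was -0.0122 with the filter at 50, -0.0028 with centring and -0.0084 to -0.0015 with a library left out. For 12q up to 74 Mb, the B3 median (-0.14) was -0.15 with the filter at 50, -0.10 with the same total, -0.13 with centring and -0.14 to -0.13 with a library left out; the C4 median (0.05) was 0.0553, 0.0768 and 0.0508 in the same order, 0.0421 with a pseudocount of 32 and 0.0438 to 0.0510 with a library left out. The cause of these shifts was not tested. Complex partners called lower in B3 numbered 1 with either scaling and 1 to 3 with a library left out. With the replicate block, 7504 genes were called in B3 and 8961 in C4 (7876 and 9244 without it), and 25 members rose and 15 fell in C4 as before; the numbers did not pair the libraries. The 9 libraries, values without counts and 1 line per knockout limit the precision.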
